A study of Mus musculus with 147 samples.

Results

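Protamines and transition proteins are small basic proteins that repack the DNA of the sperm head. The 6 genes described here were Prm1, Prm2, Prm3, Tnp1, Tnp2 and Odf1, each matched by symbol to 1 of the 31053 rows of the deposited table of UMI counts. A UMI is a tag that marks 1 RNA molecule at its 3′ end, so levels were not divided by gene length. The series holds single cells of the mouse male germline at 28 time-points, from embryonic day 6.5 (E6.5) to adulthood. A pool is the cells of 1 time-point and replicate, and its level is given in CPM, the UMIs of a gene per 1000000 UMIs summed over the cells of the pool.

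The wild-type mice were offspring of C57BL/6 females and BVSC males, which carry the Blimp1-mVenus and Stella-ECFP reporters. Fetal cells were sorted into a BVSC gate of reporter-positive cells and a negative gate of gonadal somatic cells, whereas postnatal testis cells were taken by germ cell morphology. The stages of main interest were PND12, PND14, PND30, PND35 and adult (8 to 10 weeks of age), with 2 animals each, which gave 17 pools and 3741 cells. At PND30, Hoechst staining of DNA had separated 1N, 2N and 4N cells of both animals, and replicate 2 also had unsorted cells. PND14 had 2N and 4N cells of replicate 1, and 2N and unsorted cells of replicate 2. A further 9 pools of E11.5 to E18.5 came from Helq-null BVSC mice, in which CRISPR/Cas9 had removed bases of the first exon of both alleles, and tags at the 3′ end of the transcript cannot check that deletion.

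During spermiogenesis the haploid round spermatid replaces most of its histones, first by transition proteins and then by protamines, and at the same time builds a tail. The RNAs of these genes are made in round spermatids and stored before they are translated. Tnp1 and Tnp2 encode the transition proteins, and Prm1 and Prm2 the protamines that condense sperm DNA. Prm3 encodes an acidic cytoplasmic protein of the same gene cluster, and Odf1 a main protein of the outer dense fibres of the tail.

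In GRCm38 with GENCODE vM21 annotation, 4 of the genes lie on the minus strand of chromosome 16 within 17904 bases. Tnp2 is at chr16:10787936-10788660, Prm3 at chr16:10790505-10790914, Prm2 at chr16:10791380-10796134 and Prm1 at chr16:10796326-10805839. Tnp1 lies apart at chr1:73015074-73015909 on the minus strand, and Odf1 at chr15:38219203-38226735 on the plus strand. Prm1 overlaps the antisense gene Gm46563 and the pseudogene Gm10343, and Tnp1 overlaps the antisense gene 1700027A15Rik. Whether counting used strand is not given in the sources used here, so reads of these overlapping genes cannot be told apart.

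The promoters are shown because the genes moved together across the 17 pools. RefSeq (GRCm38.p6) gave a promoter for 5 of the 6 members, all except Odf1. The starts used here are those of RefSeq and can differ from the ends of the GENCODE spans above. The printed bases of Prm1 and Prm2 lie inside those longer spans, and those of Tnp1 and Tnp2 overlap them by a few bases. Below are the 100 bases before each start, 5′ to 3′ on the minus strand, with capitals for matches on either strand to TGANNTCA, the form of a cyclic AMP response element with free central bases, or to TATANA, the core of a TATA box.
Prm1, chr16:10796824-10796923: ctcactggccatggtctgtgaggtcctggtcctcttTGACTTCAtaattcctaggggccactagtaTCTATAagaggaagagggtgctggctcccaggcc
Prm2, chr16:10792106-10792205: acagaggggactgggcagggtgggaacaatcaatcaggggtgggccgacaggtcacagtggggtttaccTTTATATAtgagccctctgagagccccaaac
Prm3, chr16:10790915-10791014: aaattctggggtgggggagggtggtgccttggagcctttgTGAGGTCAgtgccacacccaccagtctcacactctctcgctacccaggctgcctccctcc
Tnp1, chr1:73015900-73015999: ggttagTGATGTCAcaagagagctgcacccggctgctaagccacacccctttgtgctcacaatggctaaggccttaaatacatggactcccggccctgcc
Tnp2, chr16:10788656-10788755: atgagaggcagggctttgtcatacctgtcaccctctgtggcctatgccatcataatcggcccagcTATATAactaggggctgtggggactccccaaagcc
The TGANNTCA form occurred in Prm1, Prm3 and Tnp1, and its first base lay 64, 60 and 94 bases before the start. The TATANA form occurred in Prm1, Prm2 and Tnp2, with first bases between 29 and 35 bases before the start, and in Prm2 a match on each strand overlapped. Of 32851 promoters, 11.93% held the first form and 22.56% the second within 250 bases before the start. A match of letters is a description and not a binding site.

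In all, 11598 wild-type cells passed the filter, in 68 pools with a median depth of 178018 to 500849 UMIs per cell. A count of 3 UMIs, taken as the limit that a count of 0 allows, came to 0.0160 to 0.198 CPM of a pool, and such limits cover counting error only. The libraries shared the same set of 96 cell barcodes, and each PND30 gate was sequenced in libraries of its own, so gate and library cannot be told apart. A few libraries stood apart from the others of their time-point in the levels of the members themselves. They were 1 of PND12 replicate 2, 1 of PND14 replicate 2, 1 of PND35 replicate 1 and 1 of adult replicate 1. The levels of their pools and the tests between time-points are given with and without them.

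All 6 genes were highest in the 1N gate of PND30. Prm1 reached 1081 CPM in replicate 1 and 2030 CPM in replicate 2 (mean 1556 ± 671, SD, n = 2). In the 2N gate Prm1 was at 589 and 844 CPM, and in the 4N gate at 214 and 252 CPM. Both animals gave the order 1N, 2N, 4N for Prm1. Prm2 followed with 902 and 1548 CPM in 1N, 484 and 665 CPM in 2N, and 168 and 175 CPM in 4N. Prm3 was lower, at 462 and 738 CPM in 1N, 324 and 301 CPM in 2N, and 153 and 110 CPM in 4N.

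The transition protein genes showed the same order of gates. Tnp1 was at 678 and 1173 CPM in 1N, 383 and 515 CPM in 2N, and 166 and 176 CPM in 4N. Tnp2 was at 948 and 1591 CPM in 1N, 527 and 663 CPM in 2N, and 213 and 218 CPM in 4N. Odf1, the tail gene, was at 293 and 346 CPM in 1N, 250 and 166 CPM in 2N, and 91.5 and 49.0 CPM in 4N. For every member the lower 1N animal lay above both 2N animals, and the lower 2N animal above both 4N animals. With 2 animals a gate this is a description, and the share of all genes with that order was not counted. The 6 genes together took 4364 and 7428 CPM in 1N, against 1006 and 980 CPM in 4N. In the 1N gate replicate 2 was higher for each member.

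**Figure D1:**
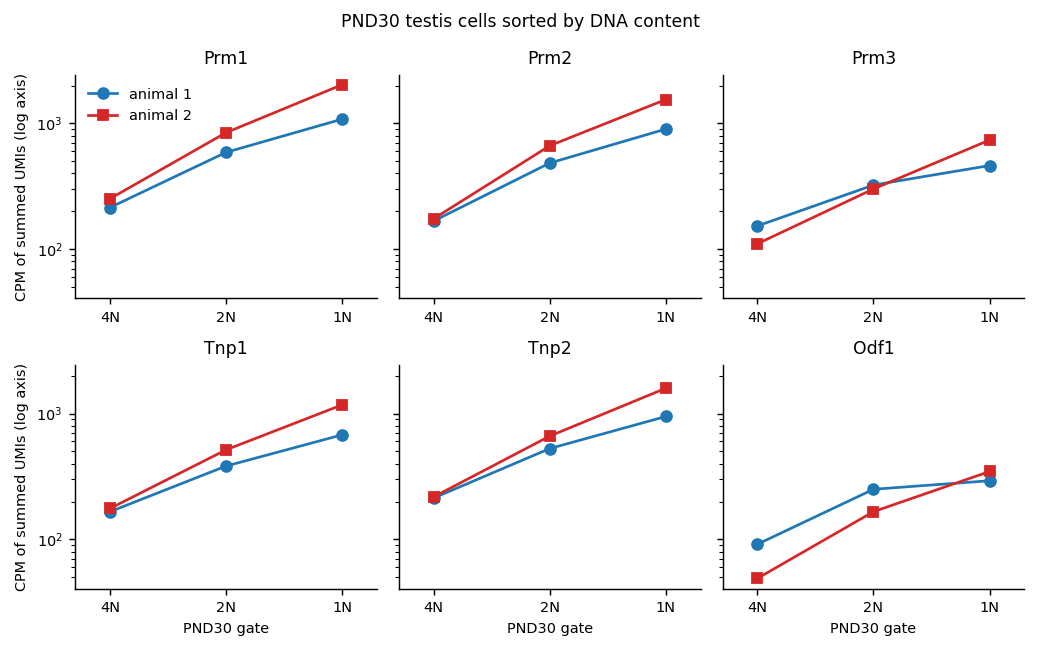
CPM of summed UMIs (log axis) of each gene in the 4N, 2N and 1N gates of PND30, with 1 line per animal. In every panel both lines rise from 4N to 1N, for example from 214 and 252 to 1081 and 2030 CPM for Prm1.

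This comparison asks how transcript levels differ between cells gated by DNA content alone. In edgeR's quasi-likelihood test over 20269 genes, all 6 members rose in 1N against 4N with Benjamini-Hochberg adjusted p = 0.00219 each, beside 16.8% of all genes tested called higher. Prm2 rose 8.29-fold (log2 difference 3.05 ± 0.31, SE) and Prm1 7.73-fold (2.95 ± 0.33). Tnp2 rose 6.83-fold (2.77 ± 0.29) and Tnp1 6.27-fold (2.65 ± 0.31). Prm3 rose 5.31-fold (2.41 ± 0.30) and Odf1 5.29-fold (2.40 ± 0.34). The calls rested on the second 1N pool, without which no gene was called and the members had adjusted p of 0.0605 to 0.0679, with log2 differences of 1.88 to 2.46. They were also lost in 1 fit over all pools from PND10 to adult, with adjusted p of 0.172 to 0.537. In the fit with the animal as a block, described below, all 6 members kept their call. That fit also called more of all genes than the fit without the block.

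The steps between neighbouring gates did not pass without the animal in the model. In 2N against 4N the log2 differences were 1.58 for Prm1, 1.71 for Prm2, 1.23 for Prm3, 1.36 for Tnp1, 1.43 for Tnp2 and 1.56 for Odf1, with adjusted p = 0.129 each. Of all genes 0% were called, while 3588 had an unadjusted p under 0.05 and DESeq2 called 886. Since gates of 1 number came from the same animal, the fit was repeated with the animal as a block, and all 6 members then passed, with adjusted p from 6.99e-09 for Prm2 to 0.000224 for Prm3. Of all 20269 genes tested, 2491 were called in that fit. In 1N against 2N the differences were 1.37, 1.34, 1.18, 1.29 and 1.34 for Prm1, Prm2, Prm3, Tnp1 and Tnp2, with adjusted p = 0.313 each, and 0.84 for Odf1 with adjusted p = 0.340, beside 0% of all genes called, 2578 with an unadjusted p under 0.05 and 339 called by DESeq2. With the animal as a block, those 5 passed, with adjusted p between 1.95e-05 and 0.00327, and Odf1 did not (adjusted p = 0.0612). For this step the block fit called 761 of all 20269 genes.

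Markers of round spermatids that were no members moved with the gates. The summed level of 8 such genes was 2814 and 3746 CPM in 1N, 2401 and 1648 CPM in 2N, and 978 and 490 CPM in 4N, with none of the 8 at 0. The 7 spermatocyte markers were at 747 and 588 CPM in 1N, 751 and 911 CPM in 2N and 986 and 968 CPM in 4N. The 4N gate thus held round spermatid transcripts and the 1N gate spermatocyte transcripts, and their part in the members' levels was not tested.

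Single cells showed that the gates differed both in a level common to a library's cells and in a minority of very high cells, counted below. In the 3 libraries of 1N cells the lowest cell had 302, 380 and 467 CPM of Prm1, against 37.4, 28.0 and 0 CPM in the 3 libraries of 4N cells. The library medians were 632, 551 and 1084 CPM in 1N, and 145, 98.7 and 143 CPM in 4N. At least 1 Prm1 UMI was found in 100% of 1N cells and in 100% and 98.9% of 4N cells. The highest cell, of the unsorted pool, reached 20264 CPM. The share of cells with a UMI therefore did not separate the gates, and the source of the level common to a library was not tested.

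**Figure D2:**
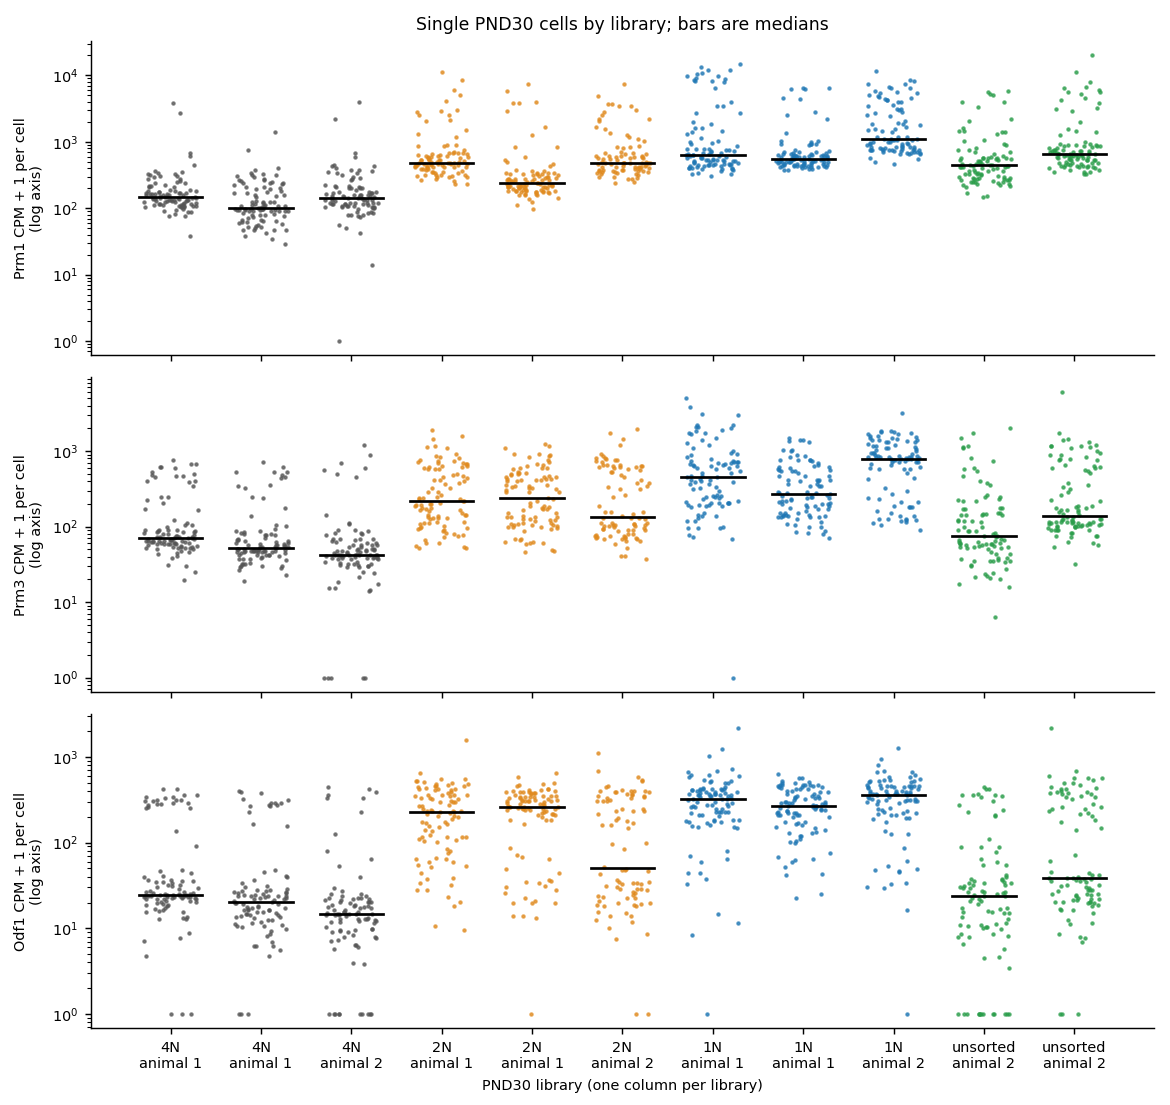
CPM + 1 (log axis) of Prm1, Prm3 and Odf1 in each PND30 cell, 1 column per library, with bars at the medians. Prm1 medians lie at 551 to 1084 CPM in the 1N libraries and at 98.7 to 145 CPM in the 4N libraries with few cells near 0, whereas Odf1 falls into a high and a low set of cells in the 2N and 4N columns.

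Odf1 was spread in another way. Its median cell had 284 and 362 CPM in the 1N pools and 22.6 and 13.7 CPM in the 4N pools, whereas the Prm1 medians were 583 and 1084 CPM in 1N and 130 and 143 CPM in 4N. Over 100 CPM of Odf1 were found in 169 of 192 and 81 of 94 cells of 1N, in 142 of 189 and 40 of 88 cells of 2N, and in 36 of 191 and 8 of 95 cells of 4N. Prm1 was over 2000 CPM in 29 of 192 and 31 of 94 cells of 1N, 18 of 189 and 12 of 88 of 2N, and 2 of 191 and 2 of 95 of 4N. Both cuts were set after the values were seen, and within 25% of the cut lay 5 and 10 1N cells for Prm1 and 7 and 3 for Odf1. The Odf1 cut lay below both 1N medians of Odf1, and the Prm1 cut above both 1N medians of Prm1. Counts at the cuts thus cannot be compared between the genes. Of the Prm1-high 1N cells, 29 of 29 and 30 of 31 also passed the Odf1 cut, and 140 and 51 1N cells passed the Odf1 cut alone. Such an overlap follows largely from where the cuts lie, so it is a description.

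Prm1-high cells of the 1N gate were high in every member. In replicate 1 their medians were 6539 CPM of Prm1, 6339 of Prm2, 1494 of Prm3, 3153 of Tnp1, 6021 of Tnp2 and 512 of Odf1. The other 1N cells of that animal had medians of 532, 434, 264, 415, 528 and 262 CPM for the same genes in that order. The 6 genes made up 1.93% and 1.57% of the UMIs of high cells in the 2 animals, against 0.270% and 0.382% in the others. Since Prm1 chose these cells, the values are a description, and the high cells had fewer UMIs, with a median of 142270 and 122780 against 320570 and 198060. The top 10% of 1N cells held 42.1% and 33.3% of the Prm1 UMIs and 23.03% and 23.4% of the Odf1 UMIs.

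**Figure D3:**
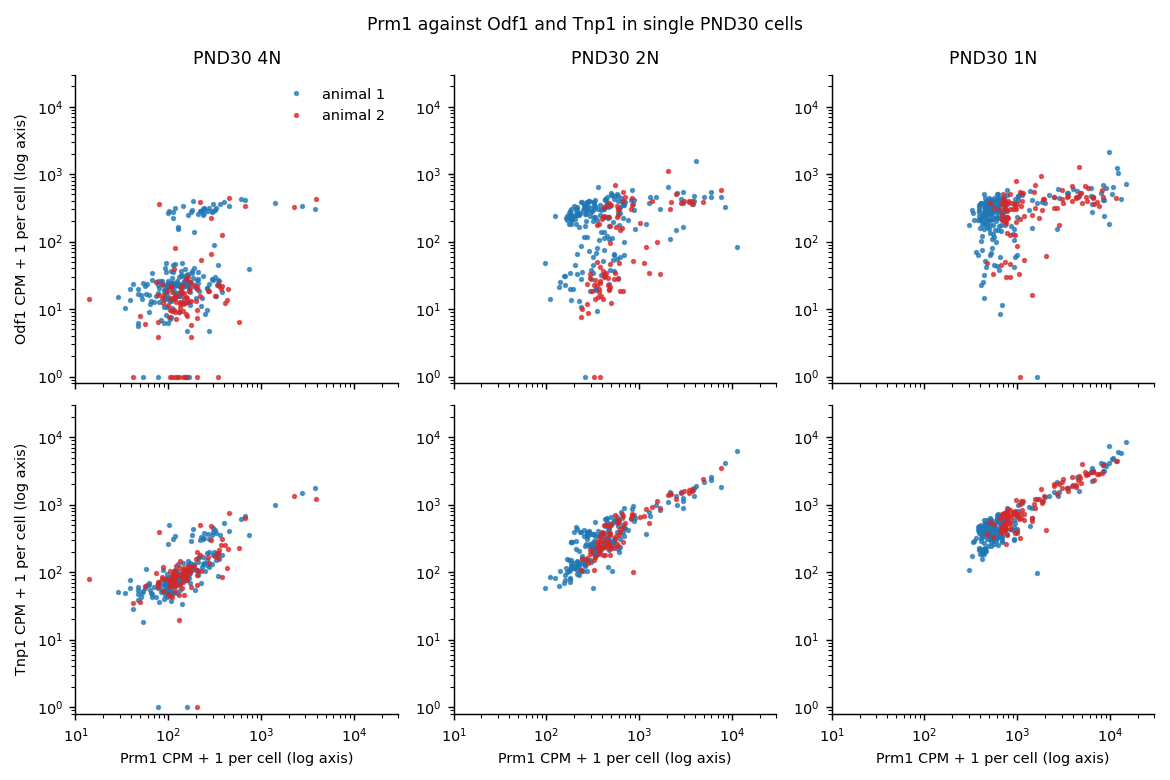
Prm1 against Odf1 (upper row) and Tnp1 (lower row) in single cells of the 4N, 2N and 1N gates, as CPM + 1 on log axes, coloured by animal. In the 1N panels Odf1 spans its whole range at Prm1 below 2000 CPM, whereas Tnp1 rises along with Prm1.

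Within 1N cells the members fell into closer and looser pairs. Spearman's rho over 192 and 94 cells, which share libraries and depth, was 0.873 and 0.944 for Prm1 with Tnp2, and 0.810 and 0.904 for Prm1 with Prm2. Prm3 went with Tnp1 at 0.876 and 0.851 and with Odf1 at 0.773 and 0.688. Prm1 with Odf1 was the loosest pair, at 0.396 and 0.517. The median over the 15 pairs was 0.687 and 0.737, and 0.595 and 0.705 after each cell was thinned to 50000 UMIs.

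The members also differed in how they followed round spermatid markers inside a library. In the 3 libraries of 1N cells, rho with the summed markers was 0.551 to 0.722 for Prm3, 0.360 to 0.728 for Odf1 and 0.275 to 0.629 for Tnp1. For Prm1 it was -0.0045 to 0.191, for Prm2 0.0345 to 0.179 and for Tnp2 0.120 to 0.178. Prm3 and Odf1 were thus the members that ran most with these markers, and Prm1, Prm2 and Tnp2 those that ran least. In the 2 libraries of unsorted PND30 cells the values were 0.780 to 0.823 for Prm3, 0.781 in both for Odf1 and 0.453 to 0.658 for Prm1. With spermatocyte markers every member had a negative rho in the 1N libraries, between -0.909 and -0.405.

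Cells of the other gates could lie within the 1N range. For Prm1, Prm2, Tnp1 and Tnp2 at once, 57 of 189 and 22 of 88 cells of 2N lay within the middle 90% of 1N cells of the same animal, as did 7 of 191 and 3 of 95 cells of 4N. Of the unsorted cells 54 of 192 did. By the same measure 152 of 192 and 75 of 94 1N cells were inside.

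The ratio of the protamines changed little between gates. Prm1 UMIs per Prm2 UMI were 1.20 and 1.31 in 1N, 1.22 and 1.27 in 2N, and 1.28 and 1.44 in 4N. Tnp1 UMIs per Tnp2 UMI were 0.715 and 0.737 in 1N, 0.726 and 0.777 in 2N, and 0.778 and 0.808 in 4N. At PND35 the first ratio was 1.15 and 1.10, and in adults 0.854 and 1.05. Without 1 library of replicate 1 that stood apart, the ratio of adult replicate 1 was 1.22.

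Before PND30 the genes were low, apart from the libraries that stood apart. At PND12, replicate 1 had 0.225 CPM of Prm1 and no UMI of Prm2, Prm3 or Tnp2, which allows up to 0.112 CPM each, with 5.77 CPM of Tnp1 and 0.375 CPM of Odf1. Replicate 2 had 36.6 CPM of Prm1, 28.2 of Prm2, 14.7 of Prm3, 24.9 of Tnp1, 34.6 of Tnp2 and 7.13 of Odf1. One library of 40 cells gave most of these, at 114 CPM of Prm1, with Prm1 in every cell and a lowest cell of 40.3 CPM. Without it, replicate 2 had 0.415 CPM of Prm1, 0.321 of Prm2, 0.132 of Prm3, 6.55 of Tnp1, 0.302 of Tnp2 and 0.811 of Odf1. Its cells had a median of 1590 CPM of spermatocyte, 597 of spermatogonial and 201 of round spermatid markers, the last beside 15.9 CPM in the pool of replicate 1.

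PND14 showed the same division. In the 2N and 4N pools Prm1 was at 0 to 0.966 CPM and Tnp1 at 4.79 to 18.4 CPM, while the unsorted pool of replicate 2 had 53.1 CPM of Prm1 and 33.5 of Tnp1. One library of 96 unsorted cells had 154 CPM of Prm1, with a lowest cell of 14.4 CPM, and the others of PND14 had at most 1.94 CPM. Over all its cells replicate 2 had 38.7 CPM of Prm1, 24.7 of Prm2, 6.56 of Prm3, 25.6 of Tnp1, 36.0 of Tnp2 and 3.38 of Odf1. Without that library it had 0.636 CPM of Prm1, 0.429 of Prm2, 0 of Prm3, 6.94 of Tnp1, 2.25 of Tnp2 and 1.86 of Odf1. Tnp1 was thus the member with the highest level at PND12 and PND14 outside these libraries, with 4.79 to 18.4 CPM in the pools that do not hold them.

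At PND35 there was no sort by DNA content. Prm1 was at 248.5 and 241 CPM, Prm2 at 215 and 219, Prm3 at 127 and 93.2, Tnp1 at 157 and 124, Tnp2 at 206 and 218, and Odf1 at 80.2 and 56.2. The library levels of Prm1 ran from 108 to 604 CPM in replicate 1 and from 173 to 307 CPM in replicate 2, and the pools of the animals were close. That closeness rested on 1 library of replicate 1, which had 604 CPM of Prm1 with a lowest cell of 226 CPM, while the others of that animal had at most 174 CPM. Without it replicate 1 had 139 CPM of Prm1, 115 of Prm2, 107.5 of Prm3, 102 of Tnp1, 114 of Tnp2 and 75.2 of Odf1. Prm1, Prm2, Tnp1 and Tnp2 of replicate 1 were then below replicate 2 and Prm3 and Odf1 above it, while the round spermatid markers moved from 690 to 675 CPM. Over 100 CPM of Odf1 were found in 69 of 367 and 56 of 332 cells.

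The adult animals differed widely. Prm1 was at 56.8 CPM in replicate 1 and 429 CPM in replicate 2, and Odf1 at 9.99 and 135 CPM. Prm2 was at 66.5 and 411 CPM, Prm3 at 18.2 and 218, Tnp1 at 30.1 and 257, and Tnp2 at 54.9 and 314. One library of replicate 1 had 183 CPM of Prm1, with a lowest cell of 35.4 CPM, and it held most of the animal's UMIs of Prm1, Prm2 and Tnp2. Without it the animal had 15.8 CPM of Prm1, 12.95 of Prm2, 10.54 of Prm3, 13.4 of Tnp1, 13.4 of Tnp2 and 7.49 of Odf1, further below replicate 2 for every member. The 5 libraries of replicate 2 lay between 322 and 538 CPM.

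Other cell types moved with that difference. Round spermatid markers were at 89.2 CPM in adult replicate 1, or 70.5 CPM without that library, and 1004 CPM in replicate 2. The 6 spermatogonial markers were at 712 and 40.8 CPM, the 4 Leydig cell markers at 699 and 6.45 CPM, and the 6 Sertoli cell markers at 378 and 10.3 CPM, in the same order. The part of cell composition in the members' levels was not tested.

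**Figure D4:**
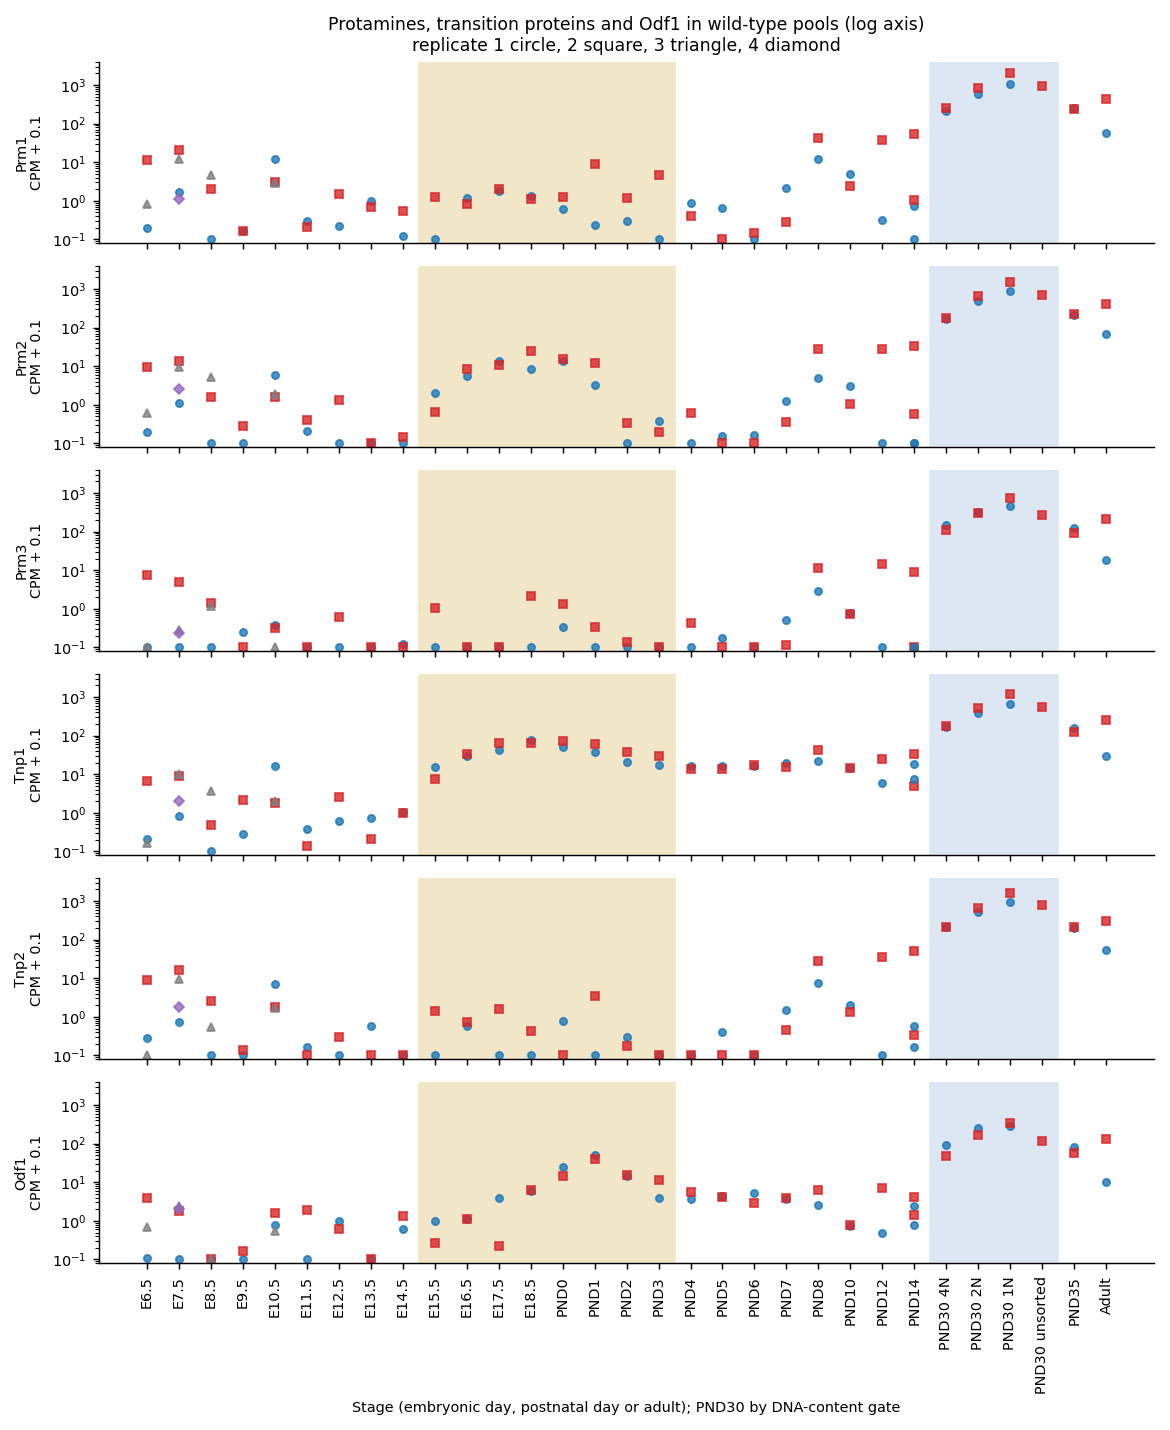
CPM + 0.1 (log axis) of the 6 genes in the 68 wild-type pools, 1 symbol per replicate, with PND30 split by gate (blue band) and E15.5 to PND3 marked (yellow band). The PND30 1N pools are the highest points of each panel, and Tnp1, Prm2 and Odf1 have a second, lower set of points above their neighbours in the yellow band.

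Comparisons between time-points asked when the genes rose, and none passed. Each PND14 pool was summed over its gates, which were 2N and 4N in replicate 1 and 2N and unsorted in replicate 2. The part of these unlike sorts in the spread was not tested. In edgeR fits over 10 pools and 24326 genes, 0% of genes were called in each of the 4 steps, while 1137, 365, 9943 and 2029 genes had an unadjusted p under 0.05 for PND12 against PND10, PND14 against PND12, PND35 against PND14, and adult against PND35. DESeq2 called 200, 15, 11124 and 77 genes in the same order. The widest member differences were in PND35 against PND14, with log2 values of 5.27 for Prm3, 5.05 for Odf1, 4.35 for Prm2, 3.86 for Prm1, 3.76 for Tnp2 and 3.13 for Tnp1.

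Odf1 and Tnp1 came closest, with adjusted p of 0.0869 and 0.0931, and passed by DESeq2 with adjusted p of 0.00182 and 0.0108. The libraries of PND12, PND14 and adult that stood apart were picked after the data were seen, by the levels of the members themselves. Values without them are thus a description and no test of a rise. Without them the log2 differences were 9.34 for Prm1, 10.35 for Prm2, 7.73 for Tnp2, 5.68 for Odf1 and 4.21 for Tnp1. Adjusted p in edgeR lay between 0.0617 and 0.0621, and Prm3 was then at 0 in PND14. With the PND35 library left out too, the members had adjusted p between 0.0612 and 0.0627. For PND12 against PND10 the same choice turned Prm1 from 2.38 to -3.48 and Tnp2 from 3.45 to -3.20. In adult against PND35 every member differed by at most 0.24, with adjusted p = 1 and SE from 1.04 for Tnp1 to 2.66 for Prm2. Without the 4 libraries the members differed by at most 0.29, again with adjusted p = 1. With SE this wide, the values do not show that the stages were equal.

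Earlier stages, which hold no spermatids, gave a floor for these values. For Tnp1, Prm2 and Odf1 that floor includes the fetal and perinatal germ cells described below, in which their levels were higher than in other cells. For these genes it is thus not a level of absence, in pools or in single cells. Over the 51 wild-type pools of E6.5 to PND10 the median was 0.989 CPM of Prm1, 1.02 of Prm2, 0 of Prm3, 14.2 of Tnp1, 0.206 of Tnp2 and 1.74 of Odf1. The highest pool of Prm1 was PND8 replicate 2 at 41.9 CPM, which was also the highest for Prm2, Prm3 and Tnp2, with 28.7, 11.4 and 28.3 CPM. With 1 library of that pool left out, the highest Prm1 level was 21.4 CPM. Among pools of E6.5 to E14.5 the highest for Prm1, Prm2 and Tnp2 was E7.5 replicate 2, with 20.9, 13.3 and 16.6 CPM. Tnp1 and Odf1 had their highest pools elsewhere, at 77.01 CPM in E18.5 replicate 1 and 49.4 CPM in PND1 replicate 1.

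Single cells were set against the level that 0.1% of the 7857 cells of those stages exceeded, which was 421 CPM for Prm1, 275 for Prm2, 104 for Prm3, 276 for Tnp1, 282 for Tnp2 and 189 for Odf1. Above it lay 87.5% and 100% of 1N cells for Prm1, 98.96% and 100% for Tnp2, and 72.9% and 80.9% for Odf1. In 2N the Prm1 shares were 41.8% and 63.6%, and in 4N 3.66% and 7.37%. With the 99th percentile of those cells as the level instead, 63.8 CPM of Prm1, the 4N shares were 90.1% and 94.7%. For Prm3, 22.0% and 10.53% of 4N cells lay above its level.

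Tnp1, Prm2 and Odf1 were also found, at lower levels, in fetal germ cells. Tnp1 was not confined to these stages. Its median over the wild-type pools of E6.5 to E14.5 was 0.898 CPM, but E10.5 replicate 1 had 16.4 CPM, the source of which was not tested. In the BVSC gate Tnp1 was at 1.32 and 1.03 CPM at E14.5, 19.4 and 10.7 at E15.5, 38.5 and 42.8 at E16.5, 49.4 and 71.7 at E17.5, and 85.8 and 68.6 at E18.5. In the negative gate it was at 0 to 0.637 CPM at E14.5 and E15.5 and at 0.958 to 8.46 CPM from E16.5 to E18.5. The BVSC pools were higher at every stage, and at E17.5 and E18.5 both gates shared a library. At E18.5, 98.6% and 93.0% of BVSC cells had a Tnp1 UMI, against 29.2% and 22.7% of negative cells, at median depths of 346563 and 382885 against 118616 and 100853 UMIs. Thinned to 50000 UMIs, which left out 2 BVSC cells of each replicate and 5 and 4 negative cells, the shares were 81.4% and 71.0% against 5.26% and 16.7%.

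Prm2 reached 16.02 and 11.9 CPM at E17.5 and 9.52 and 26.0 CPM at E18.5 in the BVSC gate, and at most 2.44 CPM in the negative gate. Odf1 was at 0.677 and 1.56 CPM at E14.5, 4.46 and 0.138 at E17.5, and 6.49 and 6.75 at E18.5 in the BVSC gate and at most 0.519 CPM in the negative gate. Prm1 stayed at 0 to 2.16 CPM in the BVSC gate and 0 to 1.82 CPM in the negative gate. The ranges of Prm1 in both gates thus overlapped.

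A test of the gates over E15.5 to E18.5 was added after these values were seen. In edgeR's fit, Tnp1 was higher in BVSC cells by 3.89 ± 0.51 on the log2 scale (adjusted p = 4.46e-06), Prm2 by 5.04 ± 0.93 (adjusted p = 0.000232) and Odf1 by 4.52 ± 1.12 (adjusted p = 0.00254). Prm1, at 1.95 ± 1.21, did not pass (adjusted p = 0.176), nor did Tnp2 or Prm3. These 3 of 6 stand beside 39% of all 22782 genes tested called higher. In BVSC cells of E18.5 against E14.5 Tnp1 rose by 5.76 ± 1.08 (adjusted p = 0.00167) and Prm2, at 0 and 0.0623 CPM at E14.5, also passed (adjusted p = 0.00533), beside 16.7% of genes called higher. Odf1, at 2.32 ± 1.69, did not pass (adjusted p = 0.314), nor did Prm1, Prm3 or Tnp2.

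After birth the same genes were found in cells with at least 50 CPM of Ddx4, a germ cell gene, a split made after the data were seen. In these cells Tnp1 was at 53.0 and 74.7 CPM at PND0, 36.7 and 64.4 at PND1, 37.9 and 37.2 at PND2, 17.8 and 31.6 at PND3, and 14.003 to 20.9 from PND4 to PND7. In cells under that level it was at 0.368 to 5.46 CPM. Odf1 was at 26.7 and 14.4 CPM at PND0, 49.5 and 41.6 at PND1, 26.2 and 15.54 at PND2, and 3.90 and 12.1 at PND3. Prm2 was at 14.7 and 15.2 CPM at PND0 and at 0 and 0.245 at PND2. The highest Odf1 levels fell later than those of Tnp1 and Prm2, which was not tested.

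**Figure D5:**
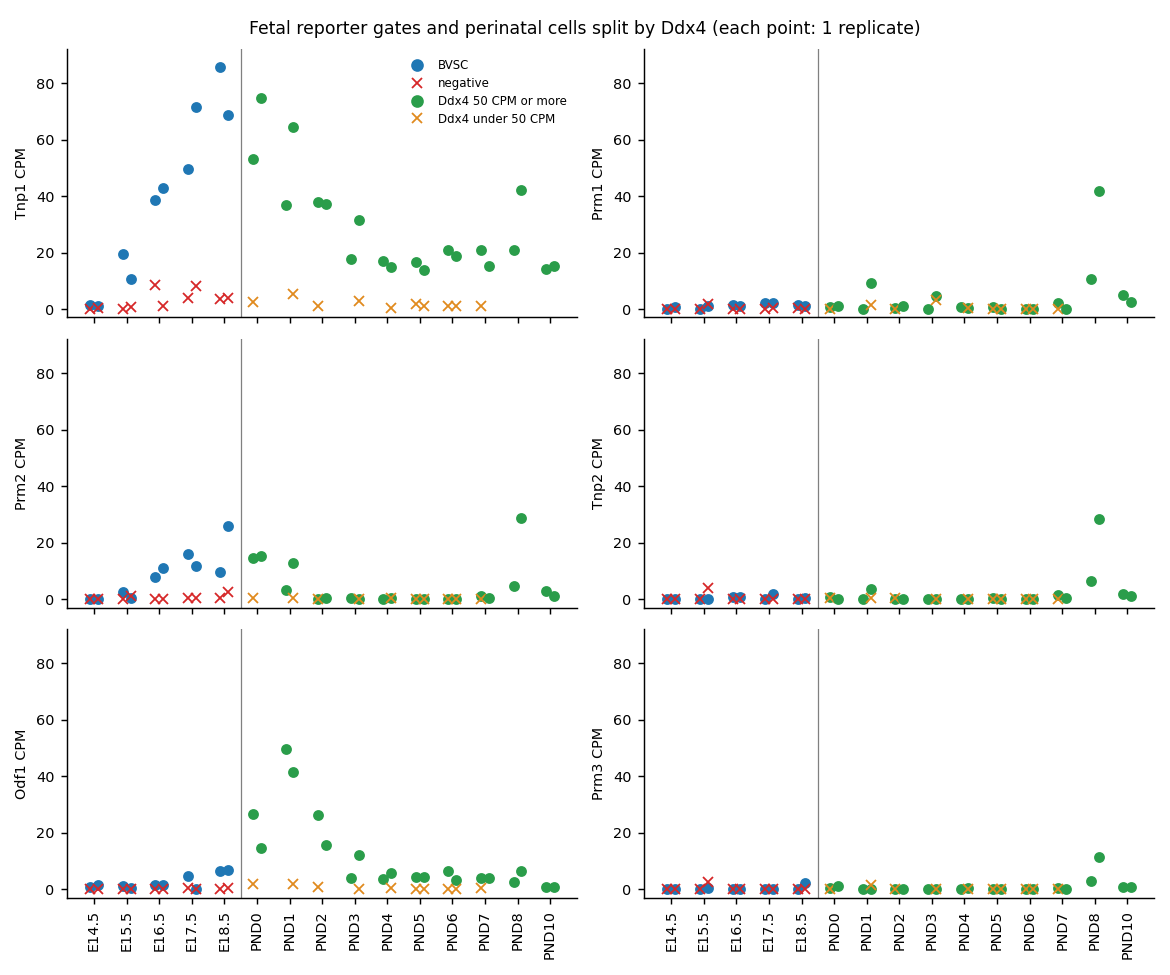
CPM of the 6 genes from E14.5 to PND10, 1 point per replicate, in fetal BVSC (circle) and negative (cross) gates and, after birth, in cells with Ddx4 at or over 50 CPM (circle) or under it (cross). Tnp1 climbs to 85.8 CPM at E18.5 in the BVSC gate, Odf1 to 49.5 CPM at PND1, and Prm1, Tnp2 and Prm3 stay at or under 9.22 CPM before PND8.

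Lists of other genes of the pathway were compared in the PND30 gates. They were chosen with earlier results of these data known. Of 19 genes of chromatin exchange, 8 rose and 2 fell in 1N against 4N, with a median log2 difference of 0.50 beside 0.20 for all genes tested, of which 16.8% were called higher and 12.2% lower. Tssk6, a spermatid kinase, rose 7.80-fold, H2al2a, a histone variant of spermatids, 7.65-fold, and H1fnt, a spermatid linker histone, 6.14-fold. The 2 that fell were Rnf8, a ubiquitin ligase of histones, and Sycp3, a protein of the meiotic chromosome axis, named after their values were seen.

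Tail genes moved most often in 1 direction. Of 27 listed partners of the tail and its sheaths 26 were tested, 19 rose and none fell, with a median of 1.88. Spem1 rose 6.52-fold, Ropn1, a protein of the fibrous sheath, 6.00-fold, and Spata19, a mitochondrial protein of sperm, 5.92-fold. Of 18 genes of transcription and mRNA control, 5 rose and 4 fell, with a median of -0.32. Fhl5, a coactivator of Crem, rose 5.83-fold, Taf7l, a subunit of the transcription machinery of germ cells, 3.07-fold, and Paip2, a regulator of translation, 2.93-fold. Piwil1 was at 0.143 times its 4N level, Hmgb2 at 0.149 and Kdm3a at 0.349, the first a piRNA-binding protein, the second a chromatin protein and the third a histone demethylase. In PND35 against PND14 no listed gene passed, and the medians were 0.69 for chromatin exchange, 1.35 for transcription and mRNA control and 4.28 for tail genes, beside 0.11 for all genes.

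The genes whose course over the 17 pools was most like that of a member were found by Pearson's r of log2(CPM + 1) among 8931 genes. These pools share the same contrast of stages and hold the libraries that stood apart, and r is a description. Smcp, a cysteine-rich protein of sperm mitochondria, led for Prm1, Prm2 and Tnp2 at 0.992 each and for Prm3 at 0.999. Hmgb4, Cypt4 and Cypt1 followed for the first 3, at 0.990 to 0.991, and Tmem247 and Gm9999 for Prm3, both at 0.999. Odf1 was most like Slc22a14, Bcl2l14 and 4933402J07Rik, each at 0.997, and Tnp1 was most like 1700042G07Rik at 0.989, Tmigd3 at 0.987 and Spem1 at 0.986. Between members, r ran from 0.951 for Tnp2 with Odf1 to 0.998 for Prm1 with Prm2.

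In Helq-null BVSC cells of E15.5, Tnp1 was at 3.11 and 5.45 CPM, against 19.4 and 10.7 CPM in the wild type. The difference, in a test added after the values were seen, did not pass in edgeR (log2 -1.69 ± 0.81, adjusted p = 0.399), beside 0.026% of 19222 genes called. Prm2, Prm1 and Odf1 did not pass either, and Prm3 and Tnp2 did not pass the filter on low counts.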

How the data were processed

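The authors used a modified STRT-seq of single cells, which tags the 3′ ends of transcripts. Reads were aligned with STAR, assigned with featureCounts (Subread) and reduced to UMI counts with UMI-tools, and the deposited table holds raw UMI counts per gene and cell. The labels of the libraries give no group, so time-point, genotype, gate and replicate were read from the deposited cell names. Cells with over 2000 genes and 10000 to 1000000 UMIs were kept, and their counts were summed per pool (at least 10 cells). The deposited table states no removal of doublets, and none was done here, so that cells of very high UMIs can be pairs.

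Sums were compared with edgeR 4.0.16 in R 4.3.3 (TMM, filterByExpr, quasi-likelihood test, Benjamini-Hochberg adjustment, threshold 0.05), with DESeq2 1.42.0 as an alternative. No exact permutation test was run on single values, since 2 animals against 2 cannot go below p = 0.333. The PND30 gates were fitted together, and PND10, PND12, PND14, PND35 and adult pools in a second fit. PND30 gates with the same number came from 1 animal, and their deviations from the gate means correlated at 0.228, 0.137 and 0.407. Other stages share only a number. The procedure was tested on simulated data with known changes. For PND30 1N against 4N it recovered 8% of 2-fold, 74% of 4-fold and 100% of 16-fold changes. For PND12 against PND10 it recovered 0% of 2-fold, 0% of 4-fold, 24% of 16-fold and 70% of 64-fold changes. For BVSC against negative cells it recovered 34% of 2-fold and 90% of 4-fold changes. Alternatives were another normalization, totals without the members, no filter, all deposited cells, 1 joint fit, the animal as a block, and leaving out each pool. Of each gene list, up to 3 called genes in each direction were named, by size of change, given a mean log2 CPM of at least 5. The members and lists were chosen with earlier results of these data known. Most-like genes had at least 50 CPM in a pool.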

Additional observations from a re-analysis of the deposited data

Results flagged for a closer look

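The Helq-null pool of E18.5, which no comparison above uses, held 5 of the 6 genes above both wild-type pools of E18.5. The pool consists of 1 library of 96 cells, so there is no replicate and no test. The share of all genes that lay above both wild-type pools was not counted, so the 5 of 6 are a description. Prm1 was at 66.0 CPM, against 1.24 and 1.03 CPM in the wild type. Prm2 was at 72.4 CPM, Prm3 at 19.8, Tnp2 at 38.1 and Odf1 at 16.6 CPM. Tnp1, at 55.9 CPM, was not above the wild type, which had 77.01 and 63.3 CPM. Within the library Prm1 was at 66.8 CPM in BVSC cells and 60.7 CPM in negative cells, and Tnp1 at 59.7 and 30.4 CPM. The source of these UMIs was not tested.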

How the results depend on the processing

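The rise of the members in PND30 1N against 4N kept its direction in all 66 member values under alternatives, and the call was lost in 12 of them, those of the joint fit and those without 1N replicate 2. The number of genes called there, 5874, was 0 in the joint fit and 0 to 5367 when 1 pool was left out (0 without 1N replicate 2, 2381 without 4N replicate 2). For 2N against 4N the count of 0 became 1624 with no filter, 886 with DESeq2 and 2491 with the replicate block, and 0 to 1565 when 1 pool was left out. For 1N against 2N it became 615, 339 and 761 in the same order, and for 1N against 4N the block gave 8278. A pool left alone in its group was assumed to vary like the others.

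Between time-points, DESeq2 called 200 genes for PND12 against PND10, 15 for PND14 against PND12, 11124 for PND35 against PND14 and 77 for adult against PND35, and the joint fit 5933 for PND35 against PND14. Leaving out 1 pool gave 0 to 4179 genes for adult against PND35, the highest without adult replicate 2, 1579 to 3144 for E18.5 against E14.5, where Prm2 no longer passed without replicate 1 of E14.5 (adjusted p = 0.0568), and 3 to 21 for the Helq-null comparison, which gave 695 with no filter and 562 with DESeq2. The cause was not tested.

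Replicate numbers do not pair animals of different stages. With the replicate block, log2 values reversed for PND12 against PND10 to -0.27 (Prm1), -0.098 (Prm2) and -0.34 (Tnp1), for PND14 against PND12 to -0.013 (Prm2) and 0.14 (Odf1), and for adult against PND35 to -1.40 (Prm2), -2.21 (Prm3), -0.67 (Tnp1) and -1.02 (Odf1). Without the libraries of PND12, PND14 and adult that stood apart, PND12 against PND10 gave -3.48 (Prm1), -3.41 (Prm2), -3.05 (Prm3), -1.32 (Tnp1), -3.20 (Tnp2) and -0.15 (Odf1), PND14 against PND12 gave 1.71 (Odf1), and adult against PND35 gave -0.086 (Prm2) and -0.10 (Tnp1), and with 1 PND35 library left out too 0.17 (Prm1). Prm2 in PND14 against PND12 was -0.19 with all deposited cells and -0.085 in the joint fit. Tnp1 in adult against PND35 was -0.067 with DESeq2 size factors and with DESeq2, -0.033 with all deposited cells and -0.016 in the joint fit.

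Leaving out 1 pool, PND12 against PND10 ran from -4.32 to 3.68 (Prm1), -10.40 to 4.17 (Prm2), -8.81 to 4.81 (Prm3), -1.68 to 1.10 (Tnp1), -10.10 to 4.75 (Tnp2) and -1.15 to 3.75 (Odf1). PND14 against PND12 ran from -5.73 to 7.20, -13.35 to 13.48, -12.41 to 11.57, -0.36 to 2.41, -6.12 to 14.04 and -1.51 to 3.39 in the same order of genes. Adult against PND35 ran from -2.53 to 0.77, -2.13 to 0.87, -3.01 to 0.95, -2.64 to 0.83, -2.37 to 0.52 and -3.19 to 0.94.

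Of 90 level values under alternatives, 80 moved by less than the SD between animals. The mean share of 4N cells with a Prm1 UMI was 90.2% after thinning to 20000 UMIs in place of 99.5%, the mean share of 4N cells above the floor of Prm1 was 92.4% in place of 5.52% with the 99th percentile, and the median rho within 1N cells 0.65 in place of 0.71 after thinning. Without 1 library of PND8 the highest Prm1 pool before PND12 was at 21.4 CPM in place of 41.9. With 2 animals a group, differences within the spread between animals were not detectable.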

Other observations

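Libraries that stood apart from others of their time-point differed in the mixture of members they held. In the PND12 library of 40 cells there were 1.298 Prm1 UMIs per Prm2 UMI and 0.563 Tnp1 UMIs per Prm1 UMI, in the PND14 library that stood apart 1.57 and 0.532, in the PND35 library 1.12 and 0.551, in the adult library 0.790 and 0.446, and in the Helq-null E18.5 library 0.911 and 0.847. The PND30 1N pools had 1.20 and 1.31 for the first ratio and 0.627 and 0.578 for the second. In germ cells around birth the mixture was another: at PND0 Tnp1 had 97.9 and 64.7 UMIs per Prm1 UMI, and at E18.5 62.1 and 61.3.

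At PND8 the level of Prm1 followed the library. In replicate 2 it was 21.4 CPM in one library and 63.6 CPM in the other, and in replicate 1 it was 0.639 and 20.6 CPM. The ratio of Tnp1 to Prm1 UMIs was 1.83 and 0.998 in the 2 replicates of PND8.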
